A study of Mus musculus with 2 samples.

Results

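The genes described here encode the coats, translocon and early sorting factors of the secretory pathway. They were chosen by symbol alone, as the protein-coding transcripts in GENCODE M21 of the Sec61, Sec62, Sec63, Srp, Ssr, Spcs, Sec11, Sec13, Sec16, Sec22, Sec23, Sec24, Sec31, Sar1, Cop, Arcn1, Arf, Tmed and Trappc genes. The rule gave 177 transcripts of 83 genes, out of 121429 transcripts with an exon value. Wild-type mouse embryonic stem cells (line DTCM23/49 XY, depleted of feeders, grown with serum and leukemia inhibitory factor) were given 200 µM 4-thiouridine (4sU) for 10 min, which takes the place of uridine in RNA made during that time. RNA that carried 4sU was biotinylated and pulled down, and the labeled RNA and the RNA left in the supernatant were each sequenced as 1 library of replicate 1. In the labels the second library is described as preexisting RNA but tagged as total RNA, and it is named unlabeled RNA below. With 2 libraries in all and 1 in each pool, no value has a replicate error, no test was made, and every comparison describes these libraries across genes.

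Each transcript has an exon value and, where it has introns, an intron value in each library. The values are per length and are called TPM by the authors, but each column sums to 10 times a TPM column; the deposited unit was kept. No read counts are given, so that depth is unknown and no counting error can be assigned. Introns took 15.4% of the labeled and 6.26% of the unlabeled column. All 8 markers of embryonic stem cells were present, with mean exon values from 90.4 to 2760. Of 6 fibroblast markers 2 had a mean above 1, with a summed exon value of 7.61 in labeled and 16.8 in unlabeled RNA, and of 5 endoderm markers 2 did, with sums of 3.44 and 10.9. Of 5 neural and mesoderm markers 4 were above 1, with sums of 143 and 172 that came mostly from Tubb3, a neuronal tubulin, at a mean of 145.

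Proteins that leave the cell or live in its membranes begin their route at the endoplasmic reticulum (ER). The signal recognition particle (SRP) binds a signal sequence as it leaves the ribosome and docks at its receptor on the ER, the Sec61 channel lets the chain through, and signal peptidase removes the signal. Cargo then leaves in vesicles coated with COPII, whose assembly is started by the GTPase Sar1, and COPI, recruited by Arf GTPases, coats the vesicles that return from the Golgi. The p24 (Tmed) proteins select cargo in both kinds of vesicle, Sec22b is a SNARE that fuses their membranes, and TRAPP is a tether that activates a Rab GTPase. These are housekeeping functions that every nucleated cell uses.

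One coding transcript stands for each gene below, the one with the highest mean exon value over both libraries (the lead transcript). A gene passed where this mean was above 1 and the exon and intron values were above 0 in both libraries, which 76 of the 83 genes and 159 of the 177 transcripts did. Of the other 7 genes, Arf6, a GTPase of the plasma membrane and endosomes, had exon values of 37.8 in labeled and 103 in unlabeled RNA but intron values of 0 in both. Arf5 had 2.99 and 1.12, with an unlabeled intron value of 0. Sec31b, the rarer form of the outer COPII cage, had 1.36 and 0.33, and Sec16b, Tmed6, Tmed11 and Trappc3l lay between 0 and 0.50 in either library.

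Values of transcripts of 1 gene are not independent. Over all coding genes, 3960 pairs of coding transcripts that shared at least 90% of their exonic bases, each with a mean of at least 10, differed by a median of 1.10-fold, and 9 such pairs of the secretory genes by 1.21-fold. Sums over transcripts therefore grow with the number of annotated models, and lead transcripts were compared instead. The lead transcript was annotated as incomplete for 8 genes (Sec31a, Sec16a, Sec24b, Sec61a2, Ssr2, Srpr, Cope and Trappc6a).

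The secretory genes were well expressed. Their median mean exon value was 98.4, against 27.7 over the 12420 coding genes that passed. Arf1 and Arf4, which recruit COPI and other coats to the Golgi, Ssr3, the gamma subunit of the translocon-associated protein (TRAP) complex, and Sec61g, the gamma subunit of the channel, had the highest means among the members, between 497 and 805. The lowest among those that passed was Tmed3, a p24 protein, at 2.38. In 25 of the 76 genes the labeled exon value was above the unlabeled one as deposited, and in 51 it was below. The median coding gene was also lower in labeled RNA, with a ratio of 0.785. The share over all coding genes is not given, so this split is not read as a trait of the secretory genes.

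Because each library sums to the same total, the labeled to unlabeled ratio of exon values was read against the median coding gene, whose ratio was 0.785 (-0.35 on the log2 scale). On this relative log2 scale the median secretory gene lay at -0.28, with values from -1.72 to 2.91. The sign of this median depends on the reference: relative to coding genes with a mean of at least 100 it was 0.11. At least 2-fold above the median gene were 16 of the 76 genes, or 21.1%, as over all coding genes (21.1%). At least 2-fold below were also 16, where the share over all coding genes was 14.3%. These counts depend on the reference and on leakage. Centred on coding genes with a mean of at least 100 they were 20 above and 5 below, and after subtraction of leakage 25 were below. The shares over all coding genes in these 2 settings are not given, so these counts have no background beside them. Medians differed between functional groups, from -0.84 for COPI to 1.02 for signal peptidase, and genes of 1 group also differed.

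**Figure D1:**
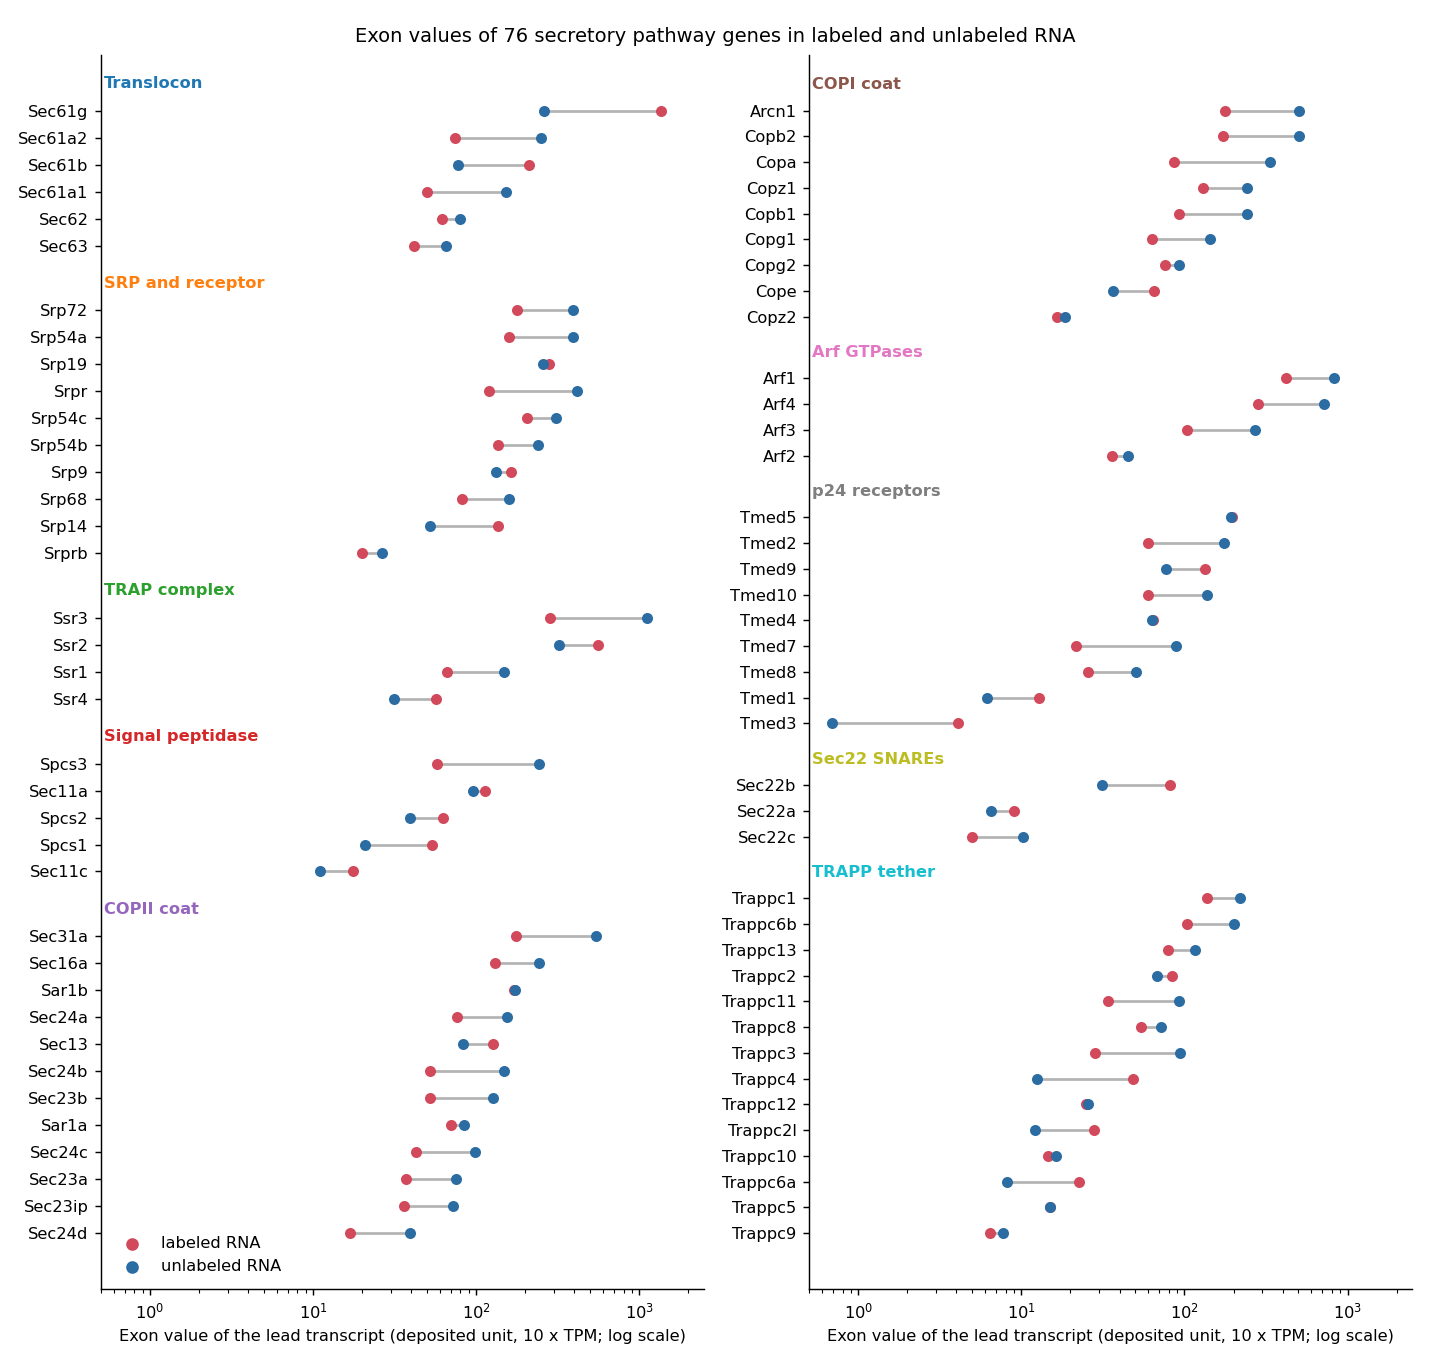
Exon value of the lead transcript (horizontal log axis, deposited unit) in labeled and unlabeled RNA for the 76 genes that passed, 1 point per library, ordered by mean value within each functional group. Labeled points lie far to the right of the unlabeled points for Sec61g, Sec61b, Srp14 and Trappc4. They lie far to the left of them for Sec61a1, Ssr3, Spcs3, Copa and Tmed7.

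The subunits of the Sec61 channel lay at both ends. Sec61g, at chr11:16501651-16508069 on the minus strand of GRCm38, had an exon value of 1349 in labeled and 262 in unlabeled RNA, a ratio of 5.16 and a relative log2 ratio of 2.72. All 5 of its coding transcripts were high in labeled RNA, with relative log2 ratios from 2.495 to 2.91. Sec61b, at chr4:47474658-47483242 on the plus strand, which encodes the beta subunit, had values of 210 and 76.9 and a relative log2 ratio of 1.80. Sec61a1, at chr6:88503579-88518905 on the minus strand, encodes the alpha subunit that forms the pore itself. Its coding transcript went the other way, with 50.05 in labeled and 153 in unlabeled RNA and a relative log2 ratio of -1.26. This transcript held only 8.74% of the labeled and 13.4% of the unlabeled exon value summed over the annotated models of the gene. The retained-intron models of Sec61a1 lay above it, from -1.10 to 0.42.

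The messages of the pore and of its small partners also differed in length. The lead transcripts had 450 bases for Sec61g, 564 for Sec61b and 3172 for Sec61a1. Sec61a2, the second alpha gene, had 74.3 in labeled and 248 in unlabeled RNA in an incomplete lead transcript of 601 bases, a relative log2 ratio of -1.39. In its complete transcript of 2448 bases the values were 96.0 and 156, with a relative log2 ratio of -0.35. Sec62 and Sec63, which help chains through the channel after they have been made, had relative log2 ratios of -0.01 and -0.31.

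Uridines are the positions that 4sU can take. The first 204 coding bases of the lead transcripts (GENCODE M21) are given for Sec61g, with a high labeled to unlabeled ratio, and Ssr3, with a low one. Every T is in capitals, 55 in the first and 53 in the second:
Sec61g: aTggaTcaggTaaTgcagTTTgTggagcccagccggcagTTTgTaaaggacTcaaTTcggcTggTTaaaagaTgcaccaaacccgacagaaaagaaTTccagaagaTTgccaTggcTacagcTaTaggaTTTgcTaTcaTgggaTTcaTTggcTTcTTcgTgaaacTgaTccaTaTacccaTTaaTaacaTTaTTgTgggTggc
Ssr3: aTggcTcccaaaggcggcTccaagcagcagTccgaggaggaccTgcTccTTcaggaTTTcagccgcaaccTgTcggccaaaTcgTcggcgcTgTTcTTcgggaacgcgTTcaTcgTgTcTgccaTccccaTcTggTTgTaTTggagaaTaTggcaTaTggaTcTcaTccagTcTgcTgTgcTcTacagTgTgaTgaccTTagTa
The whole lead transcripts hold 113 uridines in Sec61g and 949 in Ssr3. The pair was chosen for its ratios and is an illustration only.

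Members of the SRP and its receptor also lay on both sides of the median gene. Srp14, which with Srp9 makes the Alu domain that slows translation, had 135 in labeled and 51.8 in unlabeled RNA, a relative log2 ratio of 1.74, and Srp9 had 163 and 132, a ratio of 0.65 on that scale. Srp19, needed for assembly of the particle, stood at 0.46. Srp72, which had the highest mean exon value of the group, had 177 and 391, and Srp68, its partner in the core of the particle, 81.5 and 159, with relative log2 ratios of -0.80 and -0.62. The lowest was Srpr, the receptor subunit that meets the particle, with 120 and 414 in an incomplete lead transcript and a relative log2 ratio of -1.43. In its complete transcript of 2993 bases the relative log2 ratio was -1.06. Srprb, the membrane anchor of the receptor, was at -0.06.

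Srp54, the GTPase that grips the signal sequence, has 3 copies that lie side by side on mouse chromosome 12. The coding sequences of Srp54a and Srp54b, 1512 bases each, were identical, and Srp54c differed from both at 6 positions, an identity of 99.6%. A stretch of 90 coding bases, starting at position 876 of the coding sequence counted from 1 at the start codon, is given because it holds 3 of the 6 differences, in capitals:
Srp54a: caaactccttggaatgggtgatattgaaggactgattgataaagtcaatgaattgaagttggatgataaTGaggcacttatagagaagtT
Srp54b: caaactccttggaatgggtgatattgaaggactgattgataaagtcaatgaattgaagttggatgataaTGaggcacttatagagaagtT
Srp54c: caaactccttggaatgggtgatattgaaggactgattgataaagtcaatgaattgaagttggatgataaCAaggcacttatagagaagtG
The exon values were 159 in labeled and 389.8 in unlabeled RNA for Srp54a, 137 and 239.8 for Srp54b and 203 and 309 for Srp54c. All 3 were lower in labeled RNA. Only coding sequences were compared, and the lead transcripts have 1515, 3646 and 2317 bases, so untranslated bases may also tell the copies apart. How the reads they share were divided among the copies was not tested, so their separate values are uncertain.

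In the TRAP complex, which sits beside the channel, Ssr3 had the highest mean exon value, 284 in labeled and 1116 in unlabeled RNA, with a relative log2 ratio of -1.63. Ssr1, the alpha subunit, had a relative log2 ratio of -0.80. The delta subunit Ssr4 had 56.9 and 31.1, a relative log2 ratio of 1.22. Ssr2, the beta subunit, was also high, with 555 and 323 and a relative log2 ratio of 1.13, but only in its incomplete lead transcript of 494 bases. In its complete transcript of 1189 bases the values were 340.2 and 339.1, with a relative log2 ratio of 0.35.

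Signal peptidase had the highest median relative log2 ratio of the 10 groups, 1.02 over 5 genes, and 3 of the 5 were at least 2-fold above the median gene. Spcs1, a small subunit, had 53.6 in labeled and 20.7 in unlabeled RNA and a relative log2 ratio of 1.72. The catalytic subunits Sec11a and Sec11c were at 0.59 and 1.03. Spcs3, which the active complex needs, was the exception and had the lowest relative log2 ratio of all 76 genes, -1.72, with 57.7 and 242.

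The COPII coat lay mostly below the median gene, in 9 of 12 genes. Sec31a, whose product with that of Sec13 builds the outer cage, had 174 in labeled and 544 in unlabeled RNA and a relative log2 ratio of -1.29 in an incomplete lead transcript; its complete transcript of 4228 bases had 109 and 319.6, at -1.20. Sec13 had 127 and 82.3 and the highest relative log2 ratio of the coat, 0.98, so that the messages of these partners differed by over 2 log2 units. The inner coat genes Sec23a and Sec23b stood at -0.65 and -0.94. In their lead transcripts the 4 Sec24 genes, whose products bind cargo, ran from -1.16 for Sec24b to -0.67 for Sec24a. This order depends on the transcript: the Sec24b lead is incomplete, and its complete transcript of 5128 bases was at -0.87. Sec24a transcripts of 3800 and 6581 bases were at -0.97 and -1.14. Sec24d had the lowest exon values of the 4, 16.9 and 39.3. Another coding transcript of Sec24d, of 307 bases, had 24.4 and 2.74, at 3.50.

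The GTPase that starts the coat has 2 genes. Sar1b had 169.7 in labeled and 172 in unlabeled RNA, and Sar1a had 70.1 and 84.0, with relative log2 ratios of 0.33 and 0.09. Their coding sequences are 78.8% identical over 594 bases, less alike than the Srp54 copies.

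The COPI coat had the lowest median relative log2 ratio of the 10 groups, -0.84 over 9 genes. Copa, the alpha subunit of the outer layer, had 86.6 in labeled and 335 in unlabeled RNA and a relative log2 ratio of -1.60. Arcn1 (delta) had 176 and 504, Copb2 (beta prime) 173 and 505, and Copb1 (beta) 92.3 and 241, and their relative log2 ratios were -1.17, -1.20 and -1.04. These 4 were at least 2-fold below the median gene. The small epsilon subunit Cope was the only COPI gene at least 2-fold above it, with 64.8 and 36.4 and a relative log2 ratio of 1.18, and its 4 coding transcripts ranged from 0.99 to 1.38.

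COPI has 2 forms of its gamma and zeta subunits. Of the gamma forms, Copg1 had 63.3 in labeled and 144 in unlabeled RNA and Copg2 76.5 and 92.5, so that the order of the forms differed between the libraries. Of the zeta forms, Copz1 had 130.2 and 243, and Copz2 16.7 and 18.5. Copz1 holds the gene of the microRNA Mir148b in an intron and Copz2 that of Mir152, both on the same strand.

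Among Arf GTPases, Arf1, at chr11:59211414-59228270 on the minus strand, had 419.6 in labeled and 829.7 in unlabeled RNA, and Arf4 283 and 712. Arf3, whose coding sequence is 83.6% identical to that of Arf1 over 543 bases, had 104 and 269.9, and Arf2 35.9 and 45.1. The relative log2 ratio was -0.63 for Arf1, -0.98 for Arf4, -1.02 for Arf3 and 0.02 for Arf2. Arf6, which has no intron value above 0, stood at -1.10 from its exons.

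The p24 family spread widely, from -1.68 for Tmed7 to 2.91 for Tmed3 on the relative log2 scale. Tmed7 had 21.7 in labeled and 88.5 in unlabeled RNA. Tmed3 had only 4.07 and 0.69, near the minimum, so its ratio is little supported. Among genes with a mean of at least 10, Tmed9 was highest, with 134 and 76.6 and a relative log2 ratio of 1.16. Tmed2 and Tmed10, which act together in sorting GPI-anchored proteins, both had low relative log2 ratios, -1.19 and -0.87. The exon values of Tmed10 were 59.6 and 138. Tmed5 had the highest mean exon value of the family, 196 and 192, in a transcript of 1045 bases, with a relative log2 ratio of 0.38. Its transcript of 3800 bases had 53.7 and 122 and stood at -0.84.

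Of the Sec22 genes, Sec22b had 81.2 in labeled and 31.2 in unlabeled RNA and a relative log2 ratio of 1.73 in a lead transcript of 1177 bases. The transcript of 2810 bases had 54.6 and 54.8, at 0.34. Sec22a and Sec22c were low, with values from 4.97 to 10.3.

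TRAPP, the tether, had both directions. Trappc4, a subunit of the core, had 48.4 in labeled and 12.4 in unlabeled RNA and a relative log2 ratio of 2.31. Trappc6a and Trappc2l were at 1.81 and 1.54. Trappc3, also of the core, had 28.2 and 93.3 and stood at -1.37, and Trappc11, which belongs to one form of the complex, at -1.09. Trappc1 had the highest mean exon value, with 138 and 218 and a relative log2 ratio of -0.32.

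**Figure D2:**
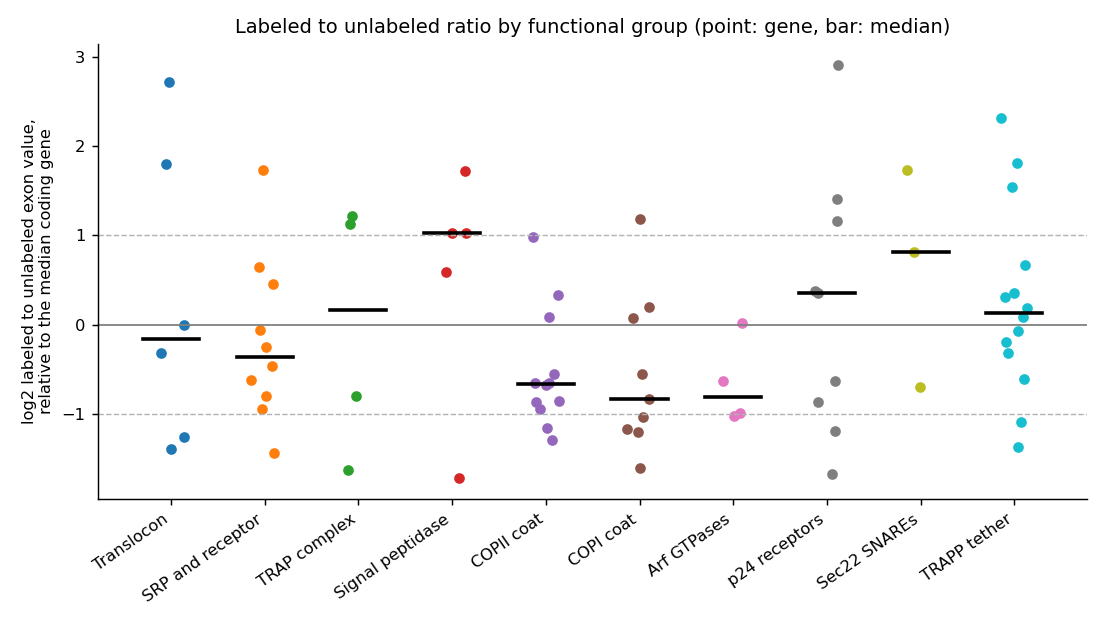
Relative log2 ratio of labeled to unlabeled exon value (vertical axis, 0 is the median of 12420 coding genes, dashed lines mark 2-fold) for the 76 genes by functional group, with a bar at each group's median. COPI, Arf and COPII medians lie at -0.84, -0.81 and -0.66 and the signal peptidase median at 1.02, and single groups span up to several log2 units.

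Across the genes the ratio fell with the length of the message. Over the 76 genes Spearman's correlation of the log2 ratio was -0.43 with spliced length and -0.45 with the number of uridines, against -0.30 and -0.31 over all coding genes. It was -0.41 with mean exon value, against -0.27. All points share the 2 libraries, and these are descriptions across genes, which are not replicates. With lead transcripts of complete coding sequence only, a choice made after the values were seen, the correlation with length was -0.58.

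Of 16 genes with lead transcripts of up to 1000 bases, 8 were at least 2-fold above the median gene, where 36.5% of all coding genes of that length were. Between 1000 and 2000 bases 7 of 21 were (29.6% of all), between 2000 and 4000 bases 1 of 26 (16.1%), and over 4000 bases 0 of 13 (9.68%). The exception between 2000 and 4000 bases was Spcs2, a signal peptidase subunit with 2909 bases and a relative log2 ratio of 1.02. At least 2-fold below were 3 of 16, 2 of 21, 7 of 26 and 4 of 13, where the shares of all coding genes were 13.3%, 8.39%, 14.9% and 19.9%. The 3 short ones were Sec61a2, Srpr and Sec31a, all with incomplete lead transcripts. Against the median of all genes in the same decile of length, 45 of 76 secretory genes (59.2%) were lower, and against the same decile of mean exon value 39 (51.3%) were. Whether length itself sets the ratio was not tested.

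**Figure D3:**
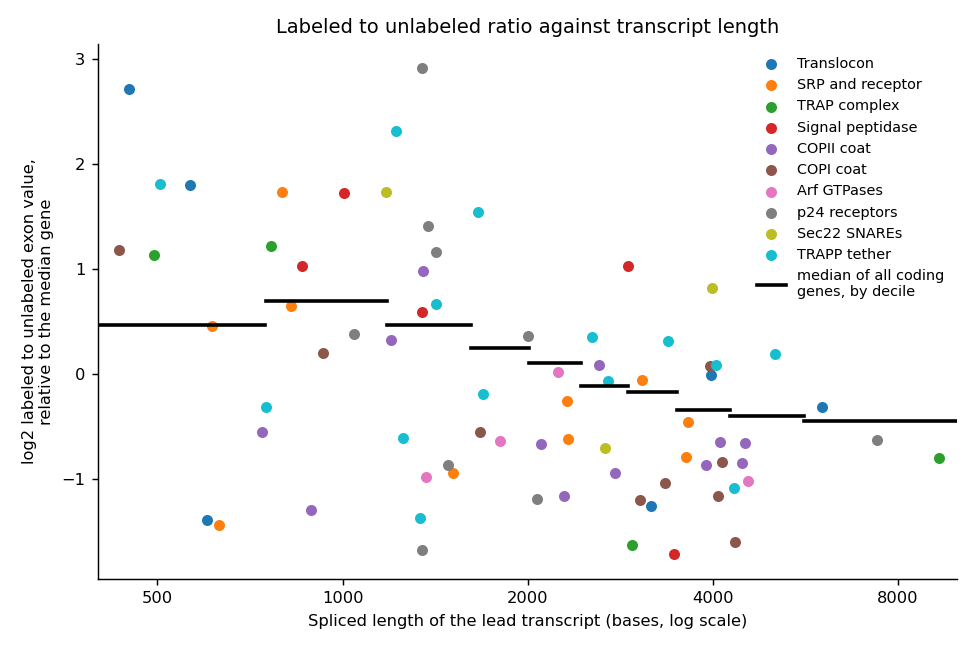
Relative log2 ratio of labeled to unlabeled exon value (vertical axis) against spliced length of the lead transcript (horizontal log axis, bases) for 76 genes, colored by functional group, with the median of all coding genes in each decile of length as black bars. Sec61g, at 450 bases and 2.72, is at the upper left, and no gene over 4000 bases is above 1.

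Exon values count unspliced and spliced RNA together, so that the intron to exon ratio stands for the unspliced share of the RNA. The ratio was lower in the secretory genes than over all genes in both libraries. Its median was 0.256 in labeled RNA, against 0.471 over all coding genes, and 0.0382 in unlabeled RNA, against 0.0918. In labeled RNA 35 of 76 genes were at least 2-fold below the median gene (46.1%, where 24.9% of all coding genes were) and 5 at least 2-fold above it (23.9% of all). In unlabeled RNA 42 were 2-fold below (55.3%, against 30.4%) and 10 above (13.2%, against 31.9%). Over all coding genes these ratios fell with the level, with Spearman correlations of -0.59 in labeled and -0.65 in unlabeled RNA, and the secretory genes have high levels. Against the median of all genes in the same decile of mean exon value, 50 of the 76 were lower in labeled RNA and 50 in unlabeled RNA (65.8% each).

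COPI had the lowest median intron to exon ratios among groups of more than 4 genes, 0.131 in labeled and 0.0174 in unlabeled RNA, and 8 of its 9 genes were below the median of their decile of level in each library. All 4 Arf genes were as well. Among genes with a mean of at least 100, the 3 lowest unlabeled ratios were those of Ssr3, at 0.00499, Copb2, at 0.00531, and Copb1, at 0.00888. Their labeled ratios were 0.122, 0.122 and 0.125. They were chosen for a low unlabeled ratio, so nothing is read from the gap between the libraries.

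The 3 highest unlabeled ratios at this level were 0.417 for Sec16a, which marks the sites where COPII vesicles form, 0.3999 for Ssr2 and 0.117 for Tmed5. Each of these depends on the transcript model. In a complete Sec16a transcript of 8797 bases the unlabeled ratio was 0.0162, in the Ssr2 transcript of 1189 bases 0.0419, and in the Tmed5 transcript of 3800 bases 0.0508. An exon of Mtf2, on the other strand, lies in an intron of the Tmed5 lead transcript.

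Exons of other annotated genes lie within introns of 24 lead transcripts of the 83 genes, passing or not, and can add to their intron values. The share over all coding genes is not given. Besides the microRNAs of Copz1 and Copz2, an intron of Trappc9 holds Peg13, an imprinted noncoding RNA, on the same strand, and an intron of Srpr holds exons of Fam118b on the other. Whether the libraries keep the strand is not given in the sources used here.

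The model behind these data takes RNA as made unspliced, then processed at 1 rate and degraded at another, and needs an intron to exon ratio that is below 1 in labeled RNA and lower still in unlabeled RNA. Outside these bounds lay 28 of the 159 secretory transcripts, or 17.6% (95% Wilson interval 12.5 to 24.3% over transcripts, which share reads), where 33.3% of all coding transcripts did. The labeled ratio was 1 or more in 22 (13.8%, against 28.2%) and not above the unlabeled ratio in 6 (3.77%, against 5.1%). Counted over lead transcripts, 9 of 76 were outside (11.8%, against 28.4% of all).

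Those 9 were of both kinds. Sec62 had a labeled ratio of 1.11, Tmed7 1.48, Trappc9 1.06, Sec22c 1.57 and Sec22a 2.94, so that their introns had as much signal per length as their exons or more. In Ssr4 the labeled ratio of 0.170 was below the unlabeled ratio of 0.322, and the same order held in Spcs1 (0.0170 and 0.0627), Trappc6a (0.0575 and 0.0622) and Tmed3 (0.256 and 1.80). No secretory gene with a mean exon value of at least 100 had a labeled ratio of 1 or more.

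**Figure D4:**
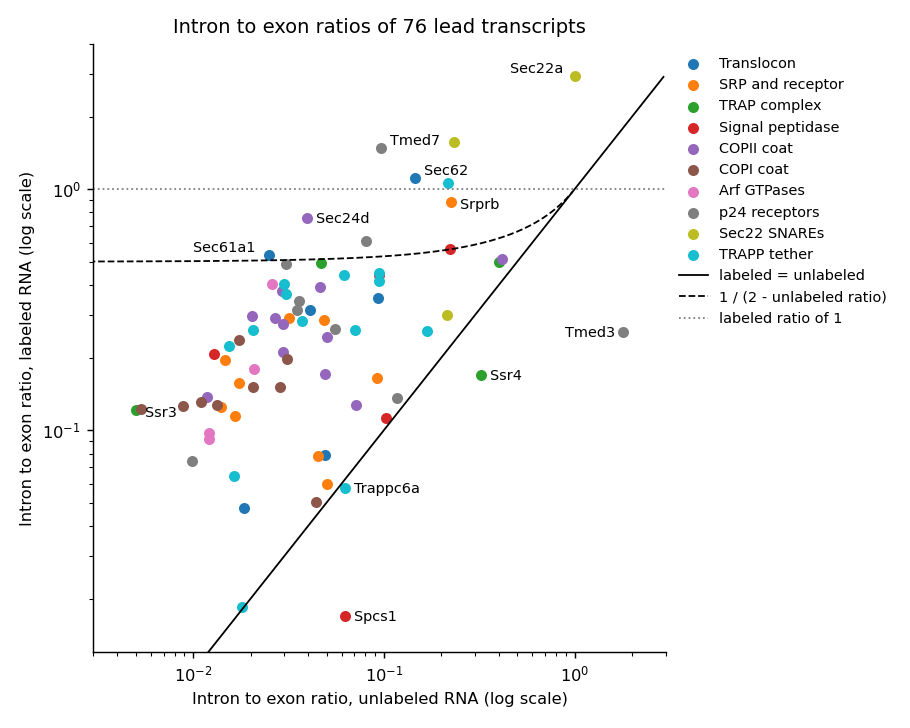
Intron to exon ratio in labeled RNA (vertical log axis) against that in unlabeled RNA (horizontal log axis) for 76 lead transcripts, colored by functional group. The 5 transcripts above the dotted line at 1 and the 4 below the solid diagonal are outside the model, 62 lie between the diagonal and the dashed line, and the remaining 5 lie above the dashed line.

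Only 10 of the 67 compatible lead transcripts had an exact solution of the model. The remaining 57 (85.1%, where 62.9% of all compatible lead transcripts had none) received approximate rates. Their median distance between observed and fitted log ratios was 0.943. These rates came from a search in which the variables of the model were tied to each other. They need not be the nearest rates over both variables. A single exact solution was found for Sec61a1, Sec24d, Srprb, Spcs2 and Tmed1, and 2 solutions for Ssr1, Arf2, Trappc3, Trappc8 and Tmed8. The modelled degradation half-life was 43.2 min for Sec61a1, 2.89 min for Spcs2, 22.5 min for Tmed1, 72.5 min for Srprb and 166 min for Sec24d.

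Over the 67 transcripts the median modelled degradation half-life was 22.1 min, and 19.6 min over all coding genes. For the 57 without an exact solution the value depends on how the rates are sought: with equation 15 minimised over both variables the median over the 67 was 4.28 min. Spearman's correlation of the degradation half-life with the distance between observed and fitted ratios was 0.74 over the 67, against 0.28 over 8887 coding genes. The median processing half-life was 2.87 min, against 3.72 min. Of genes without exact solution, Copa had a degradation half-life of 30.1 min, Arcn1 15.4 min, Arf1 41.3 min and Sec61g 70.9 min. Sec61g, with a relative log2 ratio of 2.72, thus received a longer half-life than Copa, with one of -1.60.

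The half-lives depend on what the second library holds. Read as total RNA, it gave a median degradation half-life of 51.6 min for the same 67 transcripts and 44.1 min over all coding genes. The half-life became longer in 50 of the 67 and shorter in 17, and in 15 the readings were within 2-fold of each other. Spearman's correlation between the readings was -0.22 over the 67 transcripts and 0.25 over 8887 coding genes. Sec61g went from 70.9 to 7.06 min, Srp14 from 97.0 to 3.73 min and Cope from 113 to 3.40 min, while Copa went from 30.1 to 78.8 min, Ssr3 from 29.3 to 165 min and Sec61a1 from 43.2 to 187 min. Which reading holds was not tested, and the order of the half-lives differs between them.

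**Figure D5:**
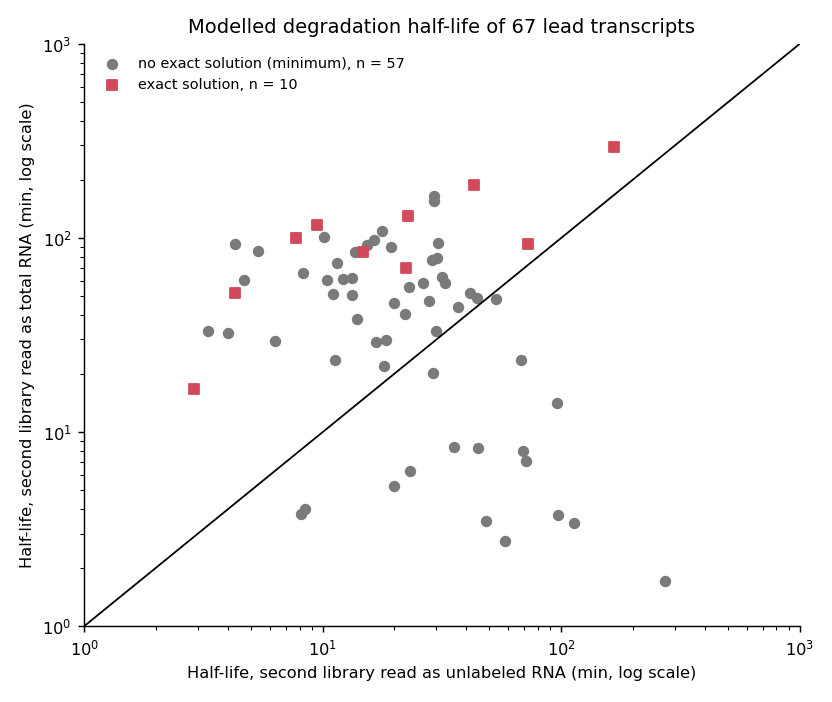
Modelled degradation half-life of 67 lead transcripts (min, log axes) with the second library read as unlabeled RNA (horizontal) and as total RNA (vertical), with the line of equal values. Squares mark the 10 transcripts with an exact solution, all above the line, and 17 points lie below it.

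The member genes also have noncoding transcripts, 166 of 343, of which 98 are annotated as retained introns and 16 as targets of nonsense-mediated decay. Of retained-intron transcripts with a mean exon value above 1, 91 from 36 genes had exon values above 0 in both libraries, and 67 of them had a higher labeled to unlabeled ratio than the lead coding transcript of their gene (73.6%, where 67.1% of such transcripts of all genes did). The median difference was 0.42 on the log2 scale, against 0.38. Models of a single exon stood further out, as over all genes. Of 7 such models 6 were higher (85.7%, where 90.8% of such models of all genes were). The median difference over the 7 was 2.04, against 2.16 over all genes.

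The difference was largest for a Copb2 model of 2629 bases, with 17.3 in labeled and 1.02 in unlabeled RNA, a relative log2 ratio of 4.43, where the lead coding transcript was at -1.20. Of 4 Sec31a models 2 stood far above the lead. One of 1931 bases had 57.8 in labeled and 10.9 in unlabeled RNA, a relative log2 ratio of 2.76, and another of 756 bases had 18.2 and 2.18, at 3.41, where the lead coding transcript was at -1.29. The other two, at -1.13 and -1.02, were close to it. In Sec61a1 the retained-intron model with the highest values, of 517 bases, had 134 and 290.1, at -0.77, and one of 2523 bases had 85.4 and 107, at 0.03, both above the coding transcript at -1.26. Such models share exons with the coding transcript, so that part of their values is the same signal.

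Promoters of the secretory genes were compared for motifs of the unfolded protein response, by which cells raise secretory capacity. RefSeq windows (GRCm38.p6) from 250 bases before to 50 after each start were found for 68 of the 83 genes, 75 windows in all. TGACGTG, a site of factors of the ATF6 and XBP1 kind, was searched on both strands and lay in 8 of the 75 (10.7%), where 2.01% of all 32851 windows and 2.72% of windows of genes that passed held it. The 8 windows belong to 7 genes, and the stretches of 27 bases around the match, with the motif in capitals, are shown because they include coat genes of both kinds:
Arf1: cggcaggcgcTGACGTGgctgccgtca
Copb1: agtccttggcTGACGTGgaagggggcg
Copb2: gccaacccacTGACGTGgaacttccgg
Sec16b: tctgtgtggcTGACGTGgcacggcagt
Sec23a: tcctccccttTGACGTGgcagaggcgg
Sec24d: cccgggcgccTGACGTGgcactagcaa
Srpr: gctgctggtgTGACGTGtcccgcgctt
They lie at chr11:59228230-59228256, chr7:114254691-114254717, chr9:98563715-98563741, chr1:157506742-157506768, chr12:59011995-59012021, chr3:123267460-123267486 and chr9:35211180-35211206. Arf1 has 2 overlapping windows that hold the same match.

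In all but Srpr a G follows the motif. The shorter CCACG, which on the other strand overlaps these matches where a G follows, was in 62.7% of the secretory windows, 32.8% of all windows and 45.7% of windows of genes that passed. The full ER stress element, CCAAT and CCACG with 9 bases between them, was in 0 of 75 windows and in 0.119% of all. Of the 7 genes with TGACGTG, 6 passed, with relative log2 ratios from -1.43 for Srpr to -0.63 for Arf1, and Sec16b was near 0 in both libraries. A match in a window is a sequence feature and does not show binding.

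Rab GTPases, which direct vesicles, and subunits of the proteasome, which degrades proteins, were set beside the secretory genes. The median relative log2 ratio was -0.28 over the secretory genes, -0.09 over 55 Rab genes and 0.65 over 37 proteasome genes. The sets differ in length, with median spliced lengths of 2038.5, 2690 and 1311 bases. Against the median of all genes in the same decile of length, their median log2 ratios were -0.28, 0.02 and 0.18. At least 2-fold above the median gene were 10 Rab and 13 proteasome genes (21.1% of all coding genes), and at least 2-fold below 10 and 3 (14.3% of all). The median mean exon value was 25.7 for Rab, 98.4 for secretory and 227 for proteasome genes. The median labeled intron to exon ratio was 0.491 for Rab and 0.0937 for proteasome genes. These differences were not tested, since each set has 1 library per pool.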

How the data were processed

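Of wild-type embryonic stem cells, 1 library of labeled and 1 of unlabeled RNA was measured. Per the methods of the authors and the submitters' processing notes, reads left after removal of ribosomal RNA were aligned to exons and introns with STAR 2.5.0 and quantified with RSEM on mm10/GRCm38. The authors deposited a TPM value per transcript for exons and for introns, a normalized unit here 10 times the usual scale. Counts, depth and strandedness are not given in the sources used here. Biotypes, lengths and coding sequences were taken from GENCODE M21, which held 90.9% of the exon identifiers, and promoters from RefSeq.

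The members, gene lists and comparisons were chosen with earlier results of these data known. Genes were kept with a mean exon value above 1 and all 4 values above 0. The log2 labeled to unlabeled ratio was centred on the median coding gene, and no pseudocount was added. Rates were computed from the intron to exon ratios with the authors' equations 10 to 17, on 4000 grid points. Where there was no exact solution the minimum of equation 16 was used, and of 2 solutions the one nearest to the median rates was taken. The script was tested on noise-free ratios simulated from the model, for which exact solutions exist. The minimum of equation 16 was not tested in this way. In the second reading the second library's ratio was taken as the steady state. Positions in decile bins were read against all coding genes.

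In each functional group the genes with the highest mean exon value and the highest and lowest ratio (mean at least 10) were named, with the 3 highest and 3 lowest unlabeled intron to exon ratios (mean at least 100), the 13 genes Sec61a1, Sec61b, Sec61g, Srp54a, Copa, Arcn1, Sar1a, Sar1b, Sec24d, Arf1, Arf6, Tmed10 and Trappc1, and the highest and lowest ratio in each list of other early secretory genes. Genes beyond this rule were named after their values were seen, to complete their complexes. Each pool has 1 library, so no test was possible and the precision is unknown. Alternatives were other minimums, a pseudocount of 0.1, subtraction of leakage, other transcripts per gene, another centring, and other solutions of the model. Other replicates were not analysed here. The scripts ran in Python 3.11.15 with scipy 1.17.1, pandas 2.3.3 and numpy 2.4.6, and figures were drawn with matplotlib 3.10.9.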

Additional observations from a re-analysis of the deposited data

How the results depend on the processing

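Of 74 recomputed values, 61 kept their direction and stayed within the interval of the value over genes or, for counts, within 1.5 times. The median relative log2 ratio turned from -0.28 to 0.11 when centred on genes with a mean of at least 100, which left 5 genes 2-fold below in place of 16 and 20 above in place of 16. Over all coding transcripts of the member genes 33 of 159 were above and 27 below, but in that setting the reference was not the median gene. Relative to the median gene, 164 coding transcripts had a mean above 1 and exon values above 0 in both libraries. Of these 33 were at least 2-fold above and 34 at least 2-fold below, where 20.8% and 15.3% of all such coding transcripts were. For the counts centred on genes of at least 100, over the 159 transcripts and after leakage subtraction, the shares over all coding genes are not given. Subtracting from the labeled values 0.142 times the unlabeled value gave 25 below, a median labeled intron to exon ratio of 0.299 and a processing half-life of 3.37 min. The second library read as total RNA gave half-lives of 51.6 min for degradation and 1.52 min for processing, equation 15 minimised over both variables 4.28 and 1.75 min, and exact solutions alone a processing half-life of 3.76 min over 10 transcripts. With 1 transcript per gene, 11.8% were outside the model. Complete coding sequences and summed exon values were tried after the data had been seen. No paired analysis was possible because each pool has 1 library and no test was made, and leaving out a replicate could not be run for the same reason. Depth is unknown, so that ratios of genes near the minimum, such as Tmed3, have no stated error.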

Other observations

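Other genes of the early secretory route were read from lists chosen outside the symbol rule, and 106 of 110 passed. Their median relative log2 ratio was -0.12, with 10 at least 2-fold above the median gene (21.1% of all coding genes) and 16 at least 2-fold below (14.3% of all). The lowest median was that of 18 cargo and retrieval receptors, at -0.60. The lead transcript was annotated as incomplete for 7 of these 18, and for 17 of the 106. Surf4, a cargo receptor, had exon values of 6.59 in labeled and 53.6 in unlabeled RNA and the lowest relative log2 ratio of all these genes, -2.67, in a lead transcript of 371 bases. Kdelr3, which returns escaped ER proteins, was the highest of that list at 1.14, with 16.99 and 9.81.

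Among 20 ER chaperone and unfolded protein response genes, 5 were at least 2-fold below the median gene (14.3% of all coding genes) and 1 above it (21.1% of all). Hyou1, a chaperone, had 37.2 in labeled and 131 in unlabeled RNA and stood at -1.47. The gene above was Ddit3, a transcription factor induced by ER stress, with 30.0 and 5.36 and a relative log2 ratio of 2.83. The oligosaccharyltransferase genes ranged from -1.62 for Stt3b, a catalytic subunit with 68.9 and 270, to 0.89 for Tusc3, with 44.0 and 30.3. The ER membrane complex and GET genes ran from -0.82 for Bag6 to 1.76 for Get4 among those with a mean of at least 10. Stx5a, a Golgi SNARE, was at -1.11, and Rint1, a tether factor with 50.2 and 6.82 but an unlabeled intron value of 0, was at 3.23. Gbf1, an exchange factor for Arf1, had 18.1 and 64.7 and stood at -1.49, and Arfgap2 at 0.53. Ap1g1, a subunit of the AP-1 adaptor, had 94.9 and 336, at -1.47, and Cltb, a clathrin light chain, stood at 1.32.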
